A study of Homo sapiens with 2 samples.

Results

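The microRNAs (miRNAs) described here come from the hairpin precursors mir-4417 to mir-4540, a run of miRBase names first reported largely from B cells. They were taken from the deposited small RNA table by precursor number alone, with any letter or copy suffix. This rule uses no measured value, though it was set with earlier results of these data known. The run held 153 of the 2363 table rows, which are 142 of 2042 mature names and 136 of 1600 hairpins, and all 124 numbers had a row. The data are 2 small RNA libraries of hCMEC/D3 cells, an immortalised line from the endothelium of human brain microvessels, widely used to model the blood-brain barrier in culture. Their labels read replicate 2 and replicate 8 and give no treatment, genotype or second group. Both come from a single line, so they carry no variation between people, and nothing in the labels says that they were separate cultures. The spread between them may therefore be technical.

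A miRNA is cut from a hairpin transcript by Drosha and Dicer, and a strand from either arm of the hairpin is loaded into an Argonaute protein. Bases 2 to 8 of the mature strand, the seed, do most of the pairing with target mRNAs. miRBase numbers follow the order of submission, so neighbours in number are not a sequence family. Entries added late came mostly from deep sequencing, and some of them lie in or beside genes for tRNA, rRNA and other abundant RNAs, whose fragments have the size of a miRNA.

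The sequences on which the results turn are shown with the seed in capitals. They are RefSeq mature sequences (build GRCh38.p14), which the table of sequences held for 122 of the 142 members. The first group holds the most abundant members, those whose sequence or a near copy of it occurs in rRNA, mitochondrial or protein-coding sequence, and miR-4454, whose near copies in the genome were many. For miR-4485, which the count table names without an arm, the sequence is that of miR-4485-3p, the mature sequence that RefSeq lists for this hairpin. Neither miR-4461 nor miR-4470 is among the sequences.
miR-4521: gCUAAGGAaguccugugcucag
miR-4485: uAACGGCCgcgguacccuaa
miR-4448: gGCUCCUUggucuaggggua
miR-4454: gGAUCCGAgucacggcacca
miR-4488: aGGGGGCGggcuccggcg
miR-4516: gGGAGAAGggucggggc
miR-4492: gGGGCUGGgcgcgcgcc
miR-4484: aAAAGGCGggagaagcccca
miR-4426: gAAGAUGGacguacuuu

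The second group pairs members with an abundant miRNA outside the run that has the same seed.
miR-4429: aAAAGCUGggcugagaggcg
miR-320b: aAAAGCUGgguugagagggcaa
miR-4458: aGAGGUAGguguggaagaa
let-7i-5p: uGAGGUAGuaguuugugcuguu

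After repeated rows were reduced to 1 per mature name, replicate 2 held 2721287 counts and replicate 8 held 2727675. At these totals 3 counts correspond to 1.10 CPM (counts scaled to a library total of 1000000) in either library. This is about the upper 95% limit of counting error for a count of 0. The labelled endothelial identity was checked against 5 miRNAs known from endothelium, all of which were detected, with a summed level of 150976 CPM in replicate 2 and 156239 CPM in replicate 8. Of 10 miRNAs known from B cells and other blood cells, 6 were detected and 3 had no count, with a summed level of 3947 and 4234 CPM. Most of that sum was miR-155-5p, also known from activated endothelium, at 3229 and 3689 CPM. The next were miR-486-5p, known from red blood cells, at 309 and 208 CPM, the lymphocyte miRNA miR-150-5p at 229 and 184 CPM, and miR-342-3p at 151 and 133 CPM. The blood-cell miRNAs miR-142-3p, miR-223-3p and miR-144-3p were those at 0.

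Most of the run was absent or close to the limit. Detection was set at a minimum of 10 counts in each library, and 19 of the 142 members (13.4%) met it. Another 12 had at least 10 summed counts without reaching the minimum in both libraries, 30 had 1 to 9 summed counts, and 81 (57.0%) had no count in either. Outside the run 524 of 1900 mature names (27.6%) were detected and 827 (43.5%) had no count. Only 3 members had 100 or more counts in both libraries. The 15 other detected members besides miR-4461 and those 3 had under 100 summed counts. The median level of the 19 detected members was 9.36 CPM, against 52.3 CPM for the detected miRNAs outside the run.

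**Figure D1:**
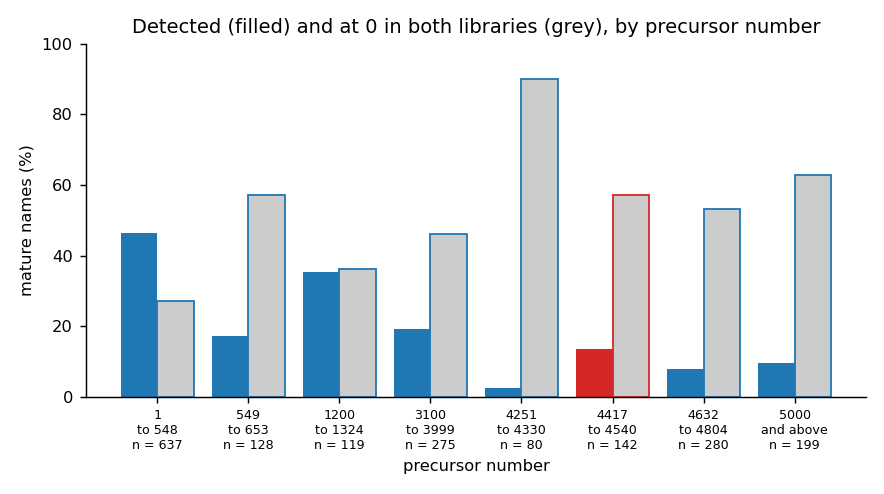
Share of mature names (percent, vertical axis) that were detected (filled bars) and that had no count in either library (grey bars), by precursor number on the horizontal axis, with the number of mature names under each. The run from mir-4417 to mir-4540 (red) had 13.4% detected and 57.0% at 0.

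Beside other runs of precursor numbers, the detected share was neither the highest nor the lowest. It was 46.5% of 637 mature names for mir-1 to mir-548, 35.3% for mir-1200 to mir-1324, 19.3% for mir-3100 to mir-3999 and 17.2% for mir-549 to mir-653. It was 9.55% from mir-5000 upwards, 7.86% for mir-4632 to mir-4804 and 2.50% for mir-4251 to mir-4330. These are descriptions of a single cell line, and the differences between runs were not tested.

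The members together took 0.252% of all counts in replicate 2, with a Wilson 95% interval of 0.246 to 0.258, and 0.169% in replicate 8, with one of 0.165 to 0.174, a mean of 0.211% ± 0.0586 (SD, n = 2). The labels name no molecular identifiers, so this interval and all those below cover counting error only. A single miRNA, miR-4521, held 78.2% of the members' counts in replicate 2 and 73.3% in replicate 8. The 4 highest members together held 92.7% and 91.2%. Without miR-4521 the other members summed to 1493 counts (0.0549%) in replicate 2 and 1234 (0.0452%) in replicate 8.

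**Figure D2:**
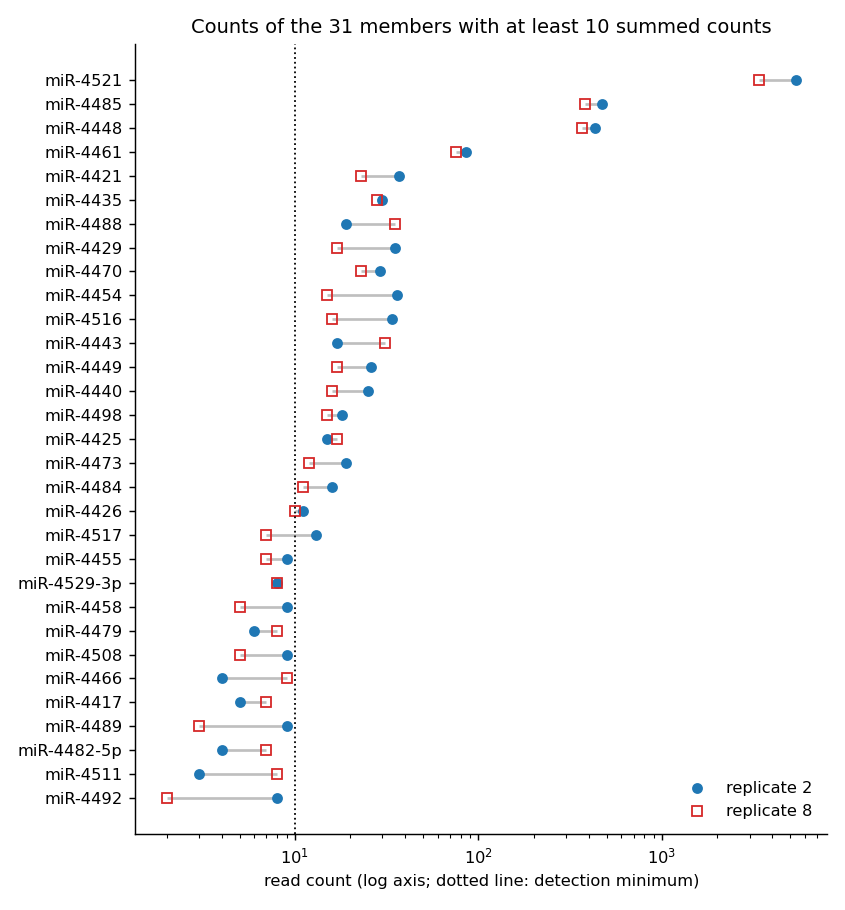
Read count (horizontal log axis) of each of the 31 members with at least 10 summed counts, in replicate 2 (filled circles) and replicate 8 (open squares). The dotted line is the detection minimum of 10 counts. miR-4521 stands apart at 5371 and 3386 counts, and all but 3 members lie below 100 counts.

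The most abundant member, miR-4521, had 5371 counts in replicate 2 and 3386 in replicate 8. This is 1974 and 1241 CPM, with a mean of 1608 ± 518 CPM (SD, n = 2), and its rank by mean level was 66 among all mature names. It was the only member among the 100 highest. RefSeq gives its hairpin, MIR4521, with the mature part in capitals here to show where it starts.
mir-4521: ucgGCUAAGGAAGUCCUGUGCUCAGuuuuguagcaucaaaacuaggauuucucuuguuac

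This hairpin of 60 bases matched GRCh37 at 1 place, chromosome 17 at 8090263 to 8090322 on the plus strand, outside annotated protein-coding and lncRNA genes. In the RefSeq gene table its first 3 bases are also part of TRS-GCT4-3, a tRNA gene for serine. The mature sequence starts at base 4 of the hairpin, so 0 bases lie between the tRNA gene and the first base of miR-4521. Directly after the mature sequence the genome has a run of 4 thymines, the kind of sequence at which RNA polymerase III, the enzyme that transcribes tRNA genes, stops. A tRNA gene is transcribed with a trailer that is cut off as the tRNA matures. The orientation of TRS-GCT4-3 was read from its B box, an internal promoter element of tRNA genes, searched as GGTTCNANNCC on both strands. A match lay upstream of the mature sequence on the hairpin's strand, with 11 bases between them, and none was found on the other strand. Of the 35116 RefSeq promoter windows of 300 bases, 0.387% held this motif on the gene's strand and 0.458% on the other. A second tRNA gene, TRT-AGT1-1 for threonine, lay 155 bases from the hairpin. The mature sequence had 1 placement in GRCh37 and none with 1 mismatch. Whether the reads of miR-4521 come from a tRNA trailer or from a hairpin cut as a miRNA was not tested. These counts cannot tell the sources apart.

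**Figure D3:**
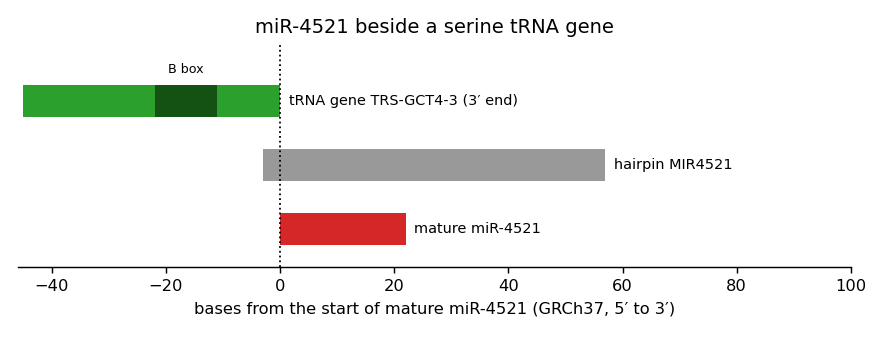
Map of the genome around miR-4521, in bases from the start of the mature sequence (horizontal axis). Bars show the end of the tRNA gene TRS-GCT4-3 (green, cut at the left edge, with the B box darker), the MIR4521 hairpin (grey) and mature miR-4521 (red), which starts where the tRNA gene ends.

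Of the member hairpins with a position, no other shared a base with a gene for a small RNA other than a miRNA. Other miRNA genes were left out of this comparison, and some member hairpins overlapped each other on opposite strands. Examples are mir-4477a with mir-4477b, mir-4536-1 with mir-4536-2 and mir-4524a with mir-4524b. Of the 136 hairpins 128 were located in GRCh37, 109 from the GENCODE annotation and 19 by matching the RefSeq hairpin. None of the 128 overlapped a GENCODE gene for snoRNA, snRNA, rRNA, Y RNA, vault RNA, SRP RNA or 7SK on either strand. GENCODE as used here holds no nuclear tRNA genes, and the RefSeq table, which does, listed 127 of the hairpins, with MIR4521 as the only one sharing a base.

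By sequence the picture was different. The next most abundant member, miR-4485, had 474 counts in replicate 2 and 383 in replicate 8, or 157 ± 23.9 CPM (SD, n = 2). Its sequence occurred at 4 places in GRCh37: in the hairpin on chromosome 11 (10529824 to 10529843, minus strand), once each on chromosomes 3 and 5, and in the mitochondrial genome at 2563 to 2582. The mitochondrial copy lies within MT-RNR2, the gene for the large mitochondrial rRNA, on its coding strand. Reads from these places have the same sequence, so the count cannot be assigned to the hairpin alone.

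Among the members with a sequence, mitochondrial placements were also found for a pair of low members. The sequence of miR-4463 (1 and 3 counts) occurred without mismatch at 13051 to 13067 on the minus strand. With 1 mismatch allowed, miR-4484, which had 16 counts in replicate 2 and 11 in replicate 8, matched at 5749 to 5768 on the plus strand.

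For 3 of the 122 members with a sequence, miR-4488, miR-4516 and miR-4492, an exact copy lay on the unplaced contig GL000220.1. This contig holds 2 stretches with 94.6% identity to RNA5-8SP6, at 112025 to 112173 and 155997 to 156145. RNA5-8SP6 is a pseudogene of the short rRNA that lies just before the large 28S rRNA in a ribosomal DNA repeat. All exact copies of the members were on the same strand as these stretches and downstream of them: miR-4488 by 1760 bases, miR-4492 by 4101 and miR-4516 by 4299. The counts were 19 in replicate 2 and 35 in replicate 8 for miR-4488, 34 and 16 for miR-4516, and 8 and 2 for miR-4492. Of these members miR-4488 was the one with the higher count in replicate 8.

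A different kind of shared sequence marked miR-4448, the third in abundance, with 434 counts in replicate 2 and 368 in replicate 8 (147 ± 17.4 CPM, SD, n = 2). The GRCh37 annotation puts its hairpin outside protein-coding and lncRNA genes on chromosome 3 (183604588 to 183604673, plus strand). The mature sequence had 3 exact placements and 159 with 1 mismatch. In windows of 300 bases around these 162 placements, 19 (11.7%) held the tRNA B box on the placement's strand and 0 held it on the other strand, against the 0.387% and 0.458% of promoter windows given above. The sequence of miR-4454 had 1 exact placement and 188 with 1 mismatch, and 0 of those 189 windows held the motif on either strand. Its counts were 36 and 15. The 162 windows of miR-4448 surround near copies of a single sequence, unlike the promoter windows. The shares were not tested against each other. A match of this motif describes the window and does not show a tRNA gene. Lack of a match does not show that no tRNA holds the sequence, because only genomic sequence with at most 1 mismatch was searched.

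**Figure D4:**
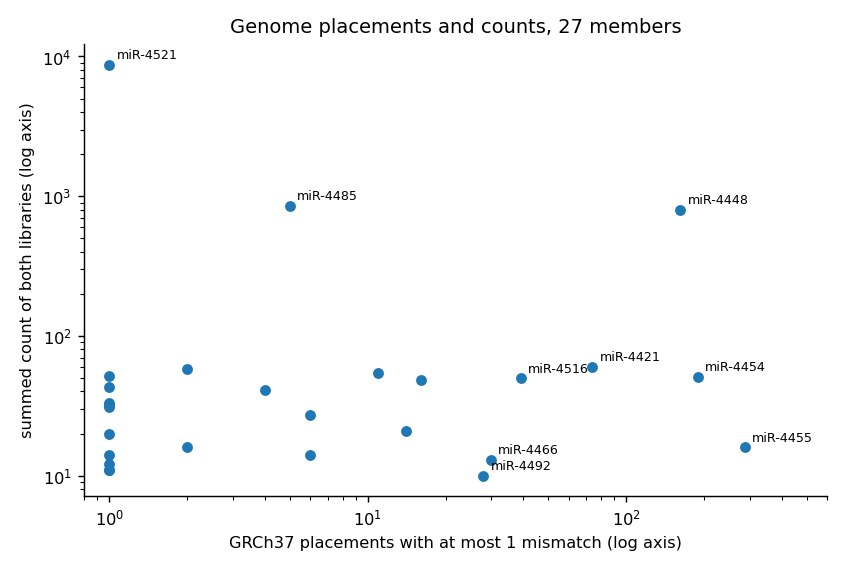
Number of GRCh37 placements with at most 1 mismatch (horizontal log axis) against the summed count of both libraries (vertical log axis) for the 27 members with a RefSeq sequence and at least 10 summed counts. miR-4521 has 1 placement and the highest count, and 7 members had over 20 placements with 1 mismatch.

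Among the 17 detected members with a sequence, 9 had exactly 1 exact placement and 8 had more, and 4 had over 20 placements with 1 mismatch. A single exact placement with none at 1 mismatch was found for 6 of them. Among the 105 members with a sequence that were not detected, 75 had exactly 1 exact placement. The sequence of miR-4426, at 11 and 10 counts, occurred at 5 places, in an exon of RPS27A, which encodes a ubiquitin fused to a ribosomal protein, and in 4 RPS27A pseudogenes, 1 of which holds the hairpin. For miR-4440, with 25 and 16 counts, there were 4 placements on chromosome 2, and its hairpin lies in an intron of HDAC4, which encodes a histone deacetylase. For miR-4421 there were 2 exact placements and 72 with 1 mismatch.

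The fourth in abundance, miR-4461, had 86 counts in replicate 2 and 75 in replicate 8 (29.5 ± 2.90 CPM, SD, n = 2). In GRCh37 its hairpin is annotated in an intron of PCBD2, on chromosome 5 from 134263729 to 134263802, plus strand. Its mature sequence was not available, so copies in mitochondrial, ribosomal or other sequence were not searched for. The next 7 members, from miR-4421 to miR-4516, had between 60 and 50 summed counts, and their order is within counting error. For miR-4421 the counts were 37 and 23, for miR-4435 they were 30 and 28, and for miR-4470 they were 29 and 23. The miR-4435 value stands in 2 rows with identical counts, for a hairpin in an exon of the lncRNA CYTOR and a second in an exon of the lncRNA MIR4435-2HG. Both are on chromosome 2 and give the same mature sequence, so the reads cannot be divided between them. The remaining 8 detected members had 21 to 48 summed counts. Among them miR-4449, with 26 and 17 counts, lies in an exon of the lncRNA DANCR, and miR-4473, with 19 and 12, in an intron of MLLT3. The hairpin of miR-4498, with 18 and 15 counts, is in an intron of GCN1, which encodes an activator of the integrated stress response.

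Below the detection minimum, miR-4517 was the only member to reach 10 counts in a single library, with 13 in replicate 2 and 7 in replicate 8. Its hairpin lies in an exon of NFATC2IP. Counts of 9 and 7 were found for miR-4455, 6 and 8 for miR-4479, whose hairpin is in an intron of TRAF2, and 9 and 3 for miR-4489. Counts in 1 library only were found for 18 members, 8 of them in replicate 2 and 10 in replicate 8, so detection near the limit did not repeat between the libraries for these.

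Over the 128 located hairpins, 54 were in introns and 10 in exons of a gene on the same strand, 26 lay opposite a gene on the other strand and 38 were outside both protein-coding and lncRNA genes. Examples of the third kind are the hairpin of miR-4429 opposite GREB1, that of miR-4516 opposite PKD1 and that of miR-4484 opposite UROS, a gene of haem synthesis. Of the 19 that belong to detected members, both hairpins of miR-4435 included, 4 were intronic, 3 exonic, 4 opposite a gene and 8 outside genes. The hairpin of miR-4454, also detected, was not located and is not among these 19.

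Support from both arms could be examined for few hairpins, none of them of a detected member. The table names a 5p and a 3p product for 15 of the 136 member hairpins (11.0%) and a single product for the other 121. Outside the run both are named for 624 of 1464 hairpins (42.6%). No member hairpin had 10 or more summed counts on each arm, whereas 182 of the 624 outside did (29.2%). The highest of the 15, mir-4482, had 17 counts over both arms, too few for 10 on each. At these levels none of the 15 could pass, so the comparison with hairpins outside says nothing about arm use in the run. Of the 15 hairpins, 7 had no count on either arm, 7 had counts on 1 arm only, and 1, mir-4482, had counts on both. The arms of mir-4482 are shown in capitals, the 5p arm first.
mir-4482: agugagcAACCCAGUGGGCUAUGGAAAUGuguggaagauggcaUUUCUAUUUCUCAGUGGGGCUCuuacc

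The 5p arm of mir-4482 had 4 counts in replicate 2 and 7 in replicate 8, and the 3p arm had 1 and 5. Counts on a single arm were highest for mir-4529, whose 3p arm had 8 counts in each library and whose 5p arm had none. The 5p arm of mir-4433 had 6 and 3 counts, and the 3p arm of mir-4474 had 5 and 4. Both arms of mir-4446 had no count, as did all arms of mir-4423, mir-4520a, mir-4520b, mir-4524b and both copies of mir-4536. For the 121 hairpins named with a single product, miR-4521 included, these counts do not show whether the other arm was present.

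Mature sequences of the run were often short. Of the 122 with a sequence, 32 (26.2%) had 18 or fewer bases, against 84 of 1595 (5.27%) outside the run. Their median GC content was 52.9%, with a median of 60.0% for the detected members and 50.0% for those at 0 in both libraries. Outside the run the median was 50.0%, both for all miRNAs with a sequence and for the detected ones. The detected members with 18 or fewer bases numbered 4 of 17, against 5 of 419 (1.19%) among the detected miRNAs outside the run. These are descriptions without a test.

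A seed was shared with a miRNA outside the run by 31 of the 122 members, and by 9 of the 27 with at least 10 summed counts. Only the 1717 mature names with a sequence could be partners. The share over all of those was not counted, so these counts cannot be called high or low. Among miRNAs with a sequence here, the seed of miR-4429 is that of miR-320b, miR-320c and miR-320d. The more abundant miR-320a, with 73014 counts in replicate 2 and 52727 in replicate 8, had no sequence here and was not compared. Compared without gaps, miR-4429 and miR-320b differ at 3 of 20 bases. The level of miR-4429 was 35 counts in replicate 2 and 17 in replicate 8, while miR-320b had 5691 and 4211. The seed of miR-4458 is that of the let-7 family, repressors of growth and cell cycle genes, but the rest of the sequence differs: 9 of 19 bases from let-7i-5p. Its counts were 9 and 5, beside 70707 and 93263 for let-7i-5p. Another member with this seed, miR-4500, had no count in either library. The seeds of miR-4521, miR-4485 and miR-4448 were shared with no other miRNA that has a sequence here.

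The libraries were compared with a two-sided exact binomial test for each miRNA with at least 10 summed counts, with Benjamini-Hochberg adjustment over all 695 of them. This compares 2 libraries and not conditions. Of all miRNAs tested, 34.2% passed an adjusted p of 0.05. Of the 31 members tested, 5 passed, and all 5 were lower in replicate 8. Over all miRNAs tested 23.5% passed as lower and 10.8% as higher. The share called rose with depth, from 5.31% of miRNAs with 10 to 19 summed counts to 14.4% with at least 20 but under 100, and 54.8% with 100 or more, and 27 of the 31 members had under 100. At an unadjusted p under 0.05, 7 of the 31 members passed, beside 40.3% of all miRNAs tested.

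**Figure D5:**
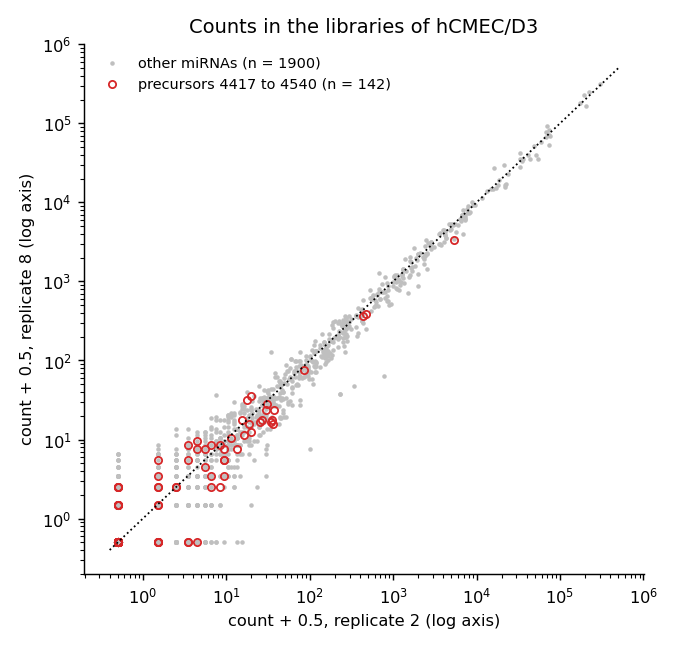
Count plus 0.5 in replicate 2 (horizontal log axis) and replicate 8 (vertical log axis) for each mature name, with the 142 members in red, the 1900 other miRNAs in grey and equality dotted. miR-4521 is the red point farthest to the right, below the dotted line.

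Among the members the largest difference by count was that of miR-4521, at 5371 against 3386 counts. Its log2 ratio of replicate 8 over replicate 2 was -0.67 (-0.73 to -0.61 at 95% confidence, exact binomial adjusted p = 3.8e-100). For miR-4485, with 474 against 383 counts, the log2 ratio was -0.31 (-0.51 to -0.11, exact binomial adjusted p = 0.00652). Among members with at least 20 summed counts, miR-4454 had the lowest ratio, -1.24 (-2.24 to -0.36, exact binomial adjusted p = 0.0114), with 36 against 15 counts. The ratios of miR-4516 and miR-4429 were -1.07 and -1.02, with exact binomial adjusted p of 0.0341 and 0.0386. For miR-4448 the ratio was -0.24 and did not pass (exact binomial adjusted p = 0.0566).

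No member passed as higher in replicate 8. The highest ratios among members with at least 20 summed counts were 0.86 for miR-4488, 0.84 for miR-4443 (17 and 31 counts) and 0.17 for miR-4425 (15 and 17 counts). Over the 31 members the median log2 ratio was -0.33, beside -0.11 over all 695 miRNAs tested. With library sizes scaled by TMM or by DESeq2 size factors, 2 of the 31 members passed, miR-4521 and miR-4454. Over all miRNAs tested 32.7% and 32.2% passed, against 34.2% without this scaling. The share of those calls that were higher in replicate 8 went from 31.5% to 48.9% and 49.6%. The median log2 ratio with TMM sizes was -0.23 over the members and -0.02 over all miRNAs tested.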

How the data were processed

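The deposited table gives, for 2 libraries, raw read counts and RPM per mature miRNA and precursor, per the file headers. Per the submitters' processing notes the tools were CASAVA 1.9, FastQC, cutadapt and Bowtie 0.12.7 with build hg19. The counter and miRBase release are not given in the sources used here. The deposited RPM values were used only as an alternative scale: the authors divided counts by 3180045 and 3205752. How reads with several placements were counted is not stated, which bears on every member with a shared sequence.

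Members were the rows with precursors mir-4417 to mir-4540. Where a mature name had several rows, the one with the largest mean was used, and CPM used the resulting totals. The exact binomial test (SciPy 1.17.1) was tested on simulated data. Log2 ratios used a pseudocount of 0.5. TMM factors came from edgeR 4.0.16 and size factors from DESeq2 1.42.0. GENCODE release 44 mapped to GRCh37 gave positions. RefSeq sequences (GRCh38.p14) were searched in GRCh37 on both strands, without mismatch for all and with 1 mismatch for members with at least 10 summed counts. The rRNA stretches were found with blastn 2.17.0. Members named in full were the 12 highest, those overlapping or matching other RNA genes, those with both arms, the 3 largest ratios in each direction and those sharing a seed. Those described for mitochondrial, ribosomal or exon matches were chosen after their values were seen. The members and lists were chosen with earlier results of these data known.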

Additional observations from a re-analysis of the deposited data

How the results depend on the processing

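Over 5 summary results 25 values were recomputed: 15 stayed within 1.5 times the reported count or within 1 SD of the level, and 10 moved. The 19 detected members became 43 with at least 1 count in both libraries and 3 with at least 100. Each library alone gave 19 and 20. The summed level of 0.211% fell to 0.0501% without miR-4521, and was 0.169% to 0.252% with a single library. The 5 of 31 members that differed between the libraries became 2 with TMM library sizes and 2 with DESeq2 size factors. Over all miRNAs tested, the share called was 34.2% as reported, 32.7% with TMM and 32.2% with DESeq2. With no filter on low counts 3 of 61 members passed (miR-4454, miR-4485 and miR-4521), beside 19.8% of all miRNAs tested. With at least 100 summed counts 3 of 4 members passed (miR-4448, miR-4485 and miR-4521), beside 57.8%. The hairpins with both arms went from 0 to 1 with at least 1 summed count on each arm and to 1 with at least 1 count on each arm in each library. The overlap of MIR4521 with a tRNA gene is 3 bases, so that with at least 20 shared bases the number was 0. The shifts with another count minimum, filter or overlap length follow from those limits, and that of the summed level from leaving out miR-4521. For the shifts from scaling the cause was not tested. Of 26 recomputed log2 ratios of 13 members none reversed, and 3 no longer passed with TMM sizes: miR-4485 (adjusted p = 0.0954), miR-4429 (0.0764) and miR-4516 (0.0687), by the exact binomial test. No paired analysis was possible because there is 1 group. Depth limits most members: for a count of 0 the upper 95% limit of counting error is about 1.10 CPM.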
